A study of Mus musculus with 4 samples.

Results

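The miR-181 family comprised every listed 5p and 3p arm of miR-181a, miR-181b, miR-181c and miR-181d, chosen by name and not by level. It accounted for 10 of the 1966 miRNA in the count tables. Small RNA was sequenced from cortical neurons of WT and APP/PS1 transgenic (TgAD) mouse embryos, 2 libraries per genotype. The labels give E16.5 cortex as the source of the neurons. These were plated in medium with serum, then kept in serum-free medium, and grew for 5 days in vitro. TgAD neurons (B6C3-Tg) carried 2 transgenes, APPswe and PSEN1dE9. The first is a partly humanized APP with the familial Swedish changes, and the second is human presenilin 1 without one of its exons. Prion promoter sequences of the mouse drive them, so that brain and spinal cord neurons are where they are mostly made. Each embryo was cultured separately and genotyped afterwards, so that the WT neurons came from embryos of the same colony without the transgenes. The comparison addressed which of the family's arms, and which of its genomic copies, differed in level between neurons with and without these transgenes.

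A miRNA is cut from a hairpin precursor, whose strands give a 5p and a 3p arm. An arm loaded into an Argonaute protein recognizes target mRNA mainly through its seed, the bases 2 to 8, and lowers their stability or translation. The miR-181 family is abundant in the thymus, where it tunes the response of T cells to antigen, and it is also present in brain, where miR-181 arms have been linked to synaptic proteins and to the survival of neurons and glia. It is encoded by paired hairpins at separate loci, and the 5p arms of miR-181a and miR-181b are made from a pair of loci each, so that only the 3p arms tell these loci apart.

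The 4 mature 5p arms are shown because they share their seed and differ in few bases elsewhere, so that they could bind overlapping sets of mRNA. The sequences are from the RefSeq table for GRCm38.p6, written 5′ to 3′, and the capitals mark the seed.
mmu-miR-181a-5p: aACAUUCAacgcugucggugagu
mmu-miR-181b-5p: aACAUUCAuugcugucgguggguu
mmu-miR-181c-5p: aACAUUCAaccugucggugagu
mmu-miR-181d-5p: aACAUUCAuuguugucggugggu
Counted from 1 at the 5′ end, miR-181b-5p differed from miR-181a-5p by A9U, C10U and A21G, and miR-181d-5p from miR-181b-5p by C12U alone over the bases they share. miR-181c-5p is miR-181a-5p without the base at position 11. No mature miRNA of the table outside the family had the seed ACAUUCA.

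The 6 mature 3p arms are shown because their sequences differ between the copies, so that each names 1 locus. The capitals again mark the seed.
mmu-miR-181a-1-3p: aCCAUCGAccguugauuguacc
mmu-miR-181a-2-3p: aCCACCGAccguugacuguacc
mmu-miR-181b-1-3p: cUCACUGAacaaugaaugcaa
mmu-miR-181b-2-3p: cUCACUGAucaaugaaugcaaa
mmu-miR-181c-3p: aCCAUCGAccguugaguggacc
mmu-miR-181d-3p: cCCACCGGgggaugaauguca
miR-181a-1-3p and miR-181c-3p share the seed CCAUCGA although they come from different chromosomes, and differ by U16G and U19G. miR-181a-2-3p differs from miR-181a-1-3p by U5C, inside the seed, and by U16C. miR-181b-1-3p and miR-181b-2-3p share the seed UCACUGA and differ by A9U over the bases they share. The seeds of miR-181a-2-3p and miR-181d-3p were each held by 1 listed arm only.

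The hairpins lie in 3 pairs in the GENCODE M21 annotation of GRCm38. Mir181a-1 (chr1:137966455-137966541) and Mir181b-1 (chr1:137966639-137966718) lie on the plus strand with 97 bases between them. They overlap an exon of the lincRNA gene A430106G13Rik on the same strand, Mir181a-1 only with its last bases because the gene starts at 137966531. They also fall in introns of the transcripts Gm4258 (same strand) and Gm26936 (opposite strand). Mir181a-2 (chr2:38852735-38852810) and Mir181b-2 (chr2:38853830-38853918), also on the plus strand and 1019 bases apart, fall in an intron of Nr6a1, which encodes a nuclear receptor and runs on the opposite strand. Mir181b-2 also overlaps an exon of the transcript Gm44144, likewise on the opposite strand. Mir181c (chr8:84178873-84178961) and Mir181d (chr8:84178716-84178787) lie on the minus strand, 85 bases apart, in an intron of Nanos3, an RNA-binding protein of germ cells, on the same strand.

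The libraries held 2070204 and 2752599 reads for WT and 2758525 and 4811010 for TgAD, and miR-181 reads were 1.86% and 1.90% of these for WT and 1.48% and 1.14% for TgAD. Levels are given below in CPM, a read count divided by the size of its library after scaling by edgeR's TMM method. The floor was set at 3 reads, or 0.746 to 1.28 CPM depending on the library, and covers counting error only. A separate table of normalized values was deposited for the study. In it, the column named as the first WT library held the counts of the library labelled TgAD replicate 1 for 100% of its 674 miRNA, the column named as the second WT library held those of WT replicate 1, and the column named as the first TgAD library held those of TgAD replicate 2. Its remaining column matched none of the count tables, with at most 4.45% of the counts identical. The counts labelled WT replicate 2 were in none of its columns (at most 5.49% identical). The genotypes used here are those of the sample labels, and each call on a miR-181 arm is therefore also given without TgAD replicate 1. Without WT replicate 2, the log2 fold changes were -1.21 for miR-181c-5p, -0.64 for miR-181b-5p, -0.49 for miR-181a-1-3p and -0.85 for miR-181b-1-3p. Nothing in the labels says whether the 2 libraries of a genotype came from different mothers or culture days, and the p-values measure only the spread between these libraries. A change in bulk neurons cannot tell fewer cells that hold an arm from less of the arm per cell.

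Among the markers of cell types, 5 of 8 neuronal miRNA had over 3 reads in every library, but miR-9-5p and miR-9-3p were at 0 in all of them and miR-124-3p had 1 to 7 reads. Of the 8 markers at 0 in every library, at least 6 come from several hairpins or from a hairpin that overlaps another, as do at least 12 of all 24 markers. The names of miR-219a-2-3p and miR-126a-5p, also at 0, and of some other markers had no match in the reference, so these were not counted either way. Summed neuronal markers ranged from 22061 to 35902 CPM in WT and from 63381 to 88183 CPM in TgAD libraries, with miR-128-3p and miR-132-3p called higher. miR-128-3p made up 82.9% to 95.3% of each sum, and without it the sums were 2877 to 3764 CPM in WT and 3686 to 4164 CPM in TgAD libraries, which overlap. miR-138-5p (log2 fold change -0.63), miR-218-5p (0.35) and miR-129-5p (0.20) were not called. All 3 oligodendrocyte markers were at 0, and myeloid and blood markers summed to 1320.1 to 1341.6 CPM in WT and 662 to 971 CPM in TgAD libraries with 1 of 6 at 0. Nearly all of these were reads of miR-451a, called lower (log2 fold change -0.72), at 3076 and 3873 for WT against 2625 and 2595 for TgAD. miR-142a-5p (0.44) was not called, and the rest of that list had at most 8 reads in any library. Endothelial and mural markers summed to 718 to 901 CPM in WT and 756 to 826 CPM in TgAD libraries with 2 of 4 at 0. Markers of astrocytes and inflammation summed to 18059 to 23303 and 14781 to 15979 CPM. The part of these shifts in the results on miR-181 was not tested.

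All 10 arms had at least 1 read, and their levels spread from rank 16 of the listed miRNA to rank 651. The arms split by abundance into a few that carried the family and several that were rare. mmu-miR-181d-5p was the highest, with 9091 and 7745 CPM in WT and 9041 and 8585 CPM in TgAD libraries, and made up 55.3% of all miR-181 reads. miR-181a-1-3p held 25.7% of the family's reads and miR-181c-3p 9.05%. The order continued with miR-181c-5p, miR-181b-5p, miR-181a-2-3p, miR-181b-1-3p, miR-181a-5p, miR-181d-3p and miR-181b-2-3p. Only miR-181c-5p and miR-181b-5p had ranges over the 4 libraries that overlapped with those of a neighbor in this order, although miR-181c-5p was above miR-181b-5p within 4 of the 4 libraries. These are levels of different sequences, which ligate and amplify unequally, so the order is that of reads.

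**Figure D1:**
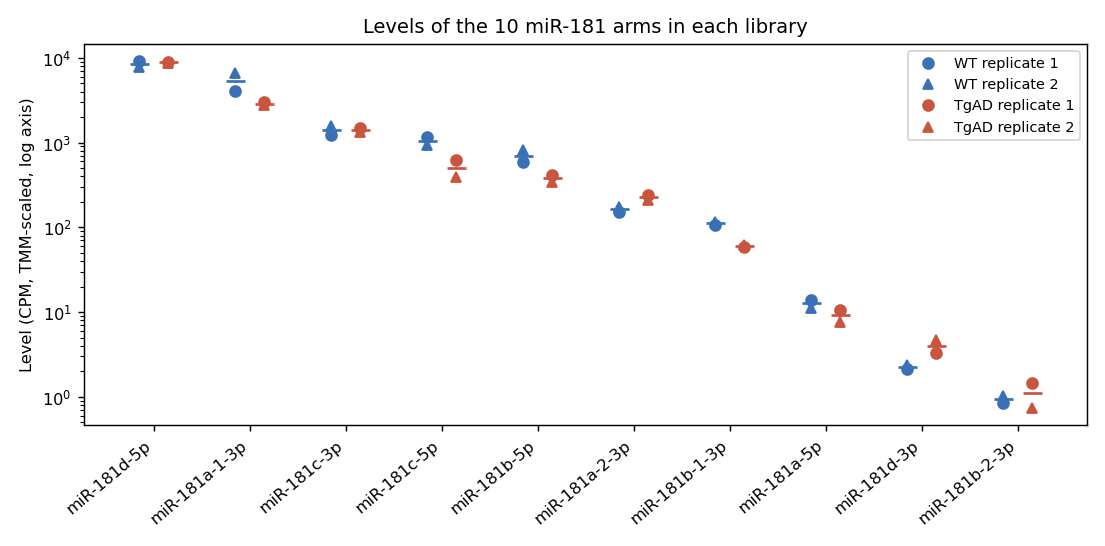
Level of each miR-181 arm in CPM (log axis), in order of the mean over the 4 libraries, with circles for replicate 1, triangles for replicate 2 and a bar at the mean of the 2 libraries of a genotype. WT is blue and TgAD red. miR-181d-5p lies between 7745 and 9091 CPM, while the TgAD points of miR-181a-1-3p, miR-181c-5p, miR-181b-5p, miR-181b-1-3p and miR-181a-5p lie below both WT points. Those of miR-181a-2-3p and miR-181d-3p lie above both. Of all tested miRNA, 32.5% lie below and 30.6% above in this way.

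The edgeR quasi-likelihood test with Benjamini-Hochberg adjustment covered 496 miRNA with sufficient counts, including 8 of the 10 arms. miR-181b-2-3p and miR-181d-3p were left out by the filter on low counts. A miRNA was called when its log2 fold change exceeded 0.6 in size and its adjusted p was under 0.1. At these cutoffs 4 of the 8 tested arms were lower in TgAD neurons and 0 were higher, against 17.3% of all tested miRNA called lower, 15.7% called higher and 33.1% called in either direction. The 4 were miR-181c-5p, miR-181b-5p, miR-181a-1-3p and miR-181b-1-3p. At an unadjusted p under 0.05 the count was also 4 of 8 arms, beside 183 of the 496 miRNA. The median log2 fold change of the 8 arms was -0.68, beside 0.03 over all tested miRNA. Without WT replicate 2 the arms called lower were 1 (miR-181c-5p), without TgAD replicate 2 they were 2 (miR-181c-5p and miR-181b-1-3p), and without either of the other libraries they were 3. With the reads of the normalized table, its columns taken by name, 0 arms and 0 of 480 miRNA were called by edgeR, beside 54 of 480 at an unadjusted p under 0.05. At stringent cutoffs, where the log2 fold change had to exceed 1 and the adjusted p to be under 0.01, 0 of the arms were called, while 4.44% of all miRNA were (3.02% lower and 1.41% higher).

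**Figure D2:**
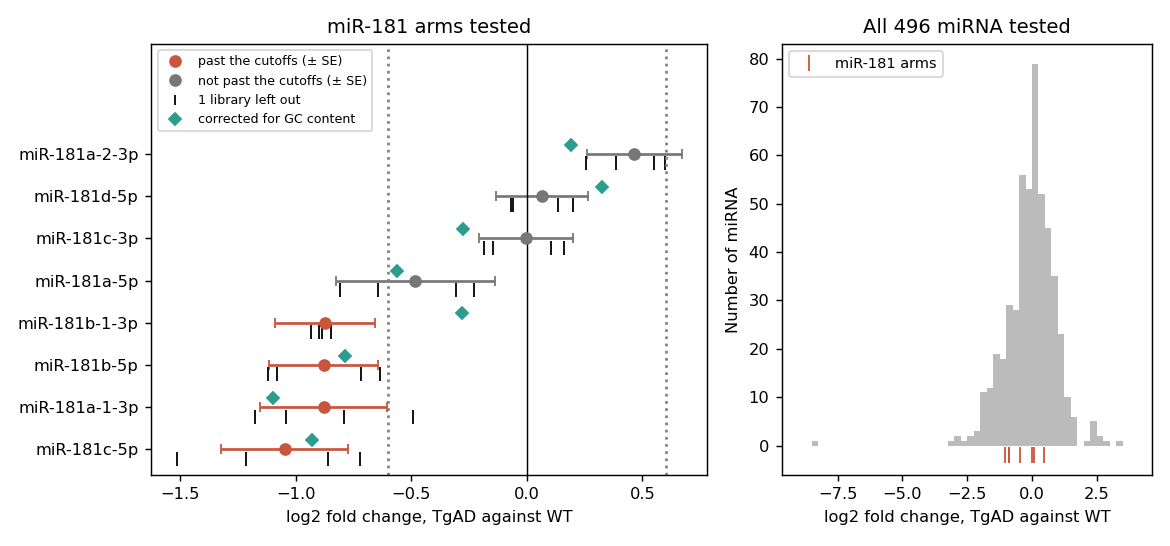
Left, log2 fold change of the 8 tested arms, TgAD against WT, with the SE as bars, ticks for fits that leave out 1 library, diamonds for the fit corrected for GC content, and dotted lines at 0.6 in both directions; right, the number of miRNA by log2 fold change over all 496 tested, with the arms as ticks below. The 4 arms past the cutoffs (red) lie between -1.05 and -0.87 and the other 4 between -0.48 and 0.46.

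Among the arms with the seed ACAUUCA, the most abundant differed little between the genotypes while rarer ones fell. Read counts of miR-181d-5p were 21369 and 22562 for WT against 24820 and 34540 for TgAD, and its levels overlapped between the genotypes. Its mean level was 8418 ± 951 CPM for WT against 8813 ± 323 CPM for TgAD (SD, n = 2), a log2 fold change of 0.07 (SE 0.20, adjusted p = 0.837 by edgeR). The sign of this estimate changed with the library left out, and it was -0.20 with total counts as library size. In the fit corrected for GC content it was 0.33 (adjusted p = 0.356 in edgeR's test).

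mmu-miR-181c-5p, which is cut from the hairpin next to that of miR-181d, fell. Its read counts were 2728 and 2700 for WT against 1703 and 1571 for TgAD, which corresponds to 1161 and 927 CPM for WT against 620.4 and 390.5 CPM for TgAD. Both TgAD libraries lay below both WT libraries, as they did for 32.5% of all tested miRNA. The mean fell from 1044 ± 165 to 505 ± 163 CPM (SD, n = 2), a change of -51.6% in the fit (log2 fold change -1.05, SE 0.27, adjusted p = 0.0377 in edgeR's test). Without TgAD replicate 1, the log2 fold change was -1.51 with an adjusted p of 0.0264. This arm was called in each of the 4 fits that left out 1 library.

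mmu-miR-181b-5p, which both the chromosome 1 and the chromosome 2 pair encode, also fell. Its levels were 585 and 812 CPM in WT and 416 and 345 CPM in TgAD libraries. Both TgAD libraries lay below both WT libraries, as they did for 32.5% of all tested miRNA. The means were 698 ± 160.2 CPM and 380.4 ± 50.4 CPM (SD, n = 2), a change of -45.6% in the fit (log2 fold change -0.88, SE 0.24, adjusted p = 0.0397 in edgeR's test). Without TgAD replicate 1 it was still called (log2 fold change -1.12, adjusted p = 0.0613), but the call was lost without WT replicate 2 (-0.64, adjusted p = 0.216) and without TgAD replicate 2 (-0.72, adjusted p = 0.102).

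mmu-miR-181a-5p, the same sequence at both of its loci, was rare here. Its read counts were 33 and 33 for WT against 29 and 31 for TgAD, and its rank among the listed miRNA was 384. Its levels were 14.0 and 11.3 CPM in WT and 10.6 and 7.71 CPM in TgAD libraries. Both TgAD libraries lay below both WT libraries, as they did for 32.5% of all tested miRNA. The log2 fold change of -0.48 (SE 0.35) did not pass edgeR's test (adjusted p = 0.361).

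Summed over the 4 arms with the shared seed, the level was 10850.4 and 9495 CPM in WT and 10088 and 9328 CPM in TgAD libraries, and the genotypes overlapped. The means were 10173 ± 958 and 9708 ± 538 CPM (SD, n = 2). Without miR-181d-5p the sum was 1755 ± 6.92 CPM for WT and 895 ± 215 CPM for TgAD (SD, n = 2). Within the reads of this seed, miR-181d-5p held 83.8% and 81.6% in WT and 89.6% and 92.0% in TgAD libraries. The lower levels of miR-181b-5p and miR-181c-5p thus stood beside a sum of counted reads made up mostly of miR-181d-5p. In it, miR-181a-5p had 126 reads over the 4 libraries. Whether that reflects counting was not tested, so the sum and the shares carry the limit given next.

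The low reads of miR-181a-5p stood apart from those of its opposite arms. Over the 4 libraries it had 126 reads, while miR-181a-1-3p and miR-181a-2-3p together had 50316, a ratio of 0.00250. miR-181b-5p had 6268 reads and its opposite arms 1012, a ratio of 6.19. Both 5p arms are encoded at a pair of loci, and how reads with several placements were counted is not stated in the sources used here. The stretch around each 5p arm that is identical at its loci is shown because the arms differ in it, with the mature arm in capitals.
miR-181a-5p, Mir181a-1 and Mir181a-2: gAACAUUCAACGCUGUCGGUGAGUuugg
miR-181b-5p, Mir181b-1 and Mir181b-2: ucAACAUUCAUUGCUGUCGGUGGGUU
The miR-181a hairpins stay identical for 4 bases after the arm and the miR-181b hairpins for 0. Of the 12 compared 5p arms with hairpins at a pair of loci, 11 were grouped in this way, after their values were seen. The exception was miR-125b-5p (21096 reads beside 26506 of its opposite arms). Arms with few reads in all, or with an opposite arm unlisted or found at several loci, were not compared. The 3 with 0 shared bases after the arm had 5p to 3p read ratios from 6.19 to 42.1, the 5 with 1 or 2 shared bases from 0.00825 to 106, and the 3 with 3 or more from 0.00250 to 0.0809. Among the 5p arms compared, 4 of these 12 and 69 of the 204 with 1 hairpin had under 0.1 of the reads of their opposite arms. Whether the level of miR-181a-5p reflects counting was not tested, and its level should be read with this limit, as should that of miR-181b-5p. The limit extends to the summed level of the shared seed and to the shares of family and seed reads held by miR-181d-5p.

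The 3p arms of the chromosome 1 pair both fell. Read counts of mmu-miR-181a-1-3p were 9431 and 19170 for WT against 8241 and 11097 for TgAD, which corresponds to 4012 and 6581 CPM for WT against 3002 and 2758 CPM for TgAD. The TgAD libraries were close to each other. Both lay below both WT libraries, as for 32.5% of all tested miRNA, and the second WT library was the higher. The means were 5297 ± 1816 and 2880.1 ± 172.5 CPM (SD, n = 2), a change of -45.6% in the fit (log2 fold change -0.88, SE 0.27, adjusted p = 0.0593 in edgeR's test). The call was lost without TgAD replicate 1 (-1.04, adjusted p = 0.113), without TgAD replicate 2 (-0.79, adjusted p = 0.145) and without WT replicate 2 (-0.49, adjusted p = 0.302).

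Read counts of mmu-miR-181b-1-3p were 254 and 333 for WT against 162 and 251 for TgAD. Its levels of 108 and 114 CPM in WT and 59.0 and 62.4 CPM in TgAD libraries were alike within each genotype. They did not overlap between the genotypes, with TgAD lower, as for 32.5% of all tested miRNA. The log2 fold change was -0.87 (SE 0.21, a change of -45.4%, adjusted p = 0.0334 in edgeR's test), and -0.93 without TgAD replicate 1 (adjusted p = 0.0724). The call was lost without WT replicate 1 (-0.90, adjusted p = 0.115) and without WT replicate 2 (-0.85, adjusted p = 0.148). It was also lost when each library was corrected for the GC content of the mature sequences (log2 fold change -0.28, adjusted p = 0.472).

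GC content moved with the changes over the 441 tested miRNA with a reference sequence, of 496. The tested miRNA without one were left uncorrected for GC content. The median log2 fold change was -0.76 for the 75 miRNA under 40% GC, -0.13 for the 157 from 40% to under 50%, 0.26 for the 140 from 50% to under 60%, and 0.32 for the 69 at 60% or more. miR-181b-1-3p, at 38.1% GC, lies in the first of these groups, of which 32 miRNA were called lower and 2 higher. miR-181c-5p (45.5%), miR-181b-5p (45.8%) and miR-181d-5p (43.5%) lie in the next, of which 38 were called lower and 22 higher. miR-181a-1-3p (50.0%) lies in the third, of which 9 were called lower and 30 higher. With the GC correction, miR-181a-1-3p was at -1.10 (adjusted p = 0.0192), miR-181c-5p at -0.93 (adjusted p = 0.0360) and miR-181b-5p at -0.79 (adjusted p = 0.0398), all still called in edgeR's test.

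**Figure D3:**
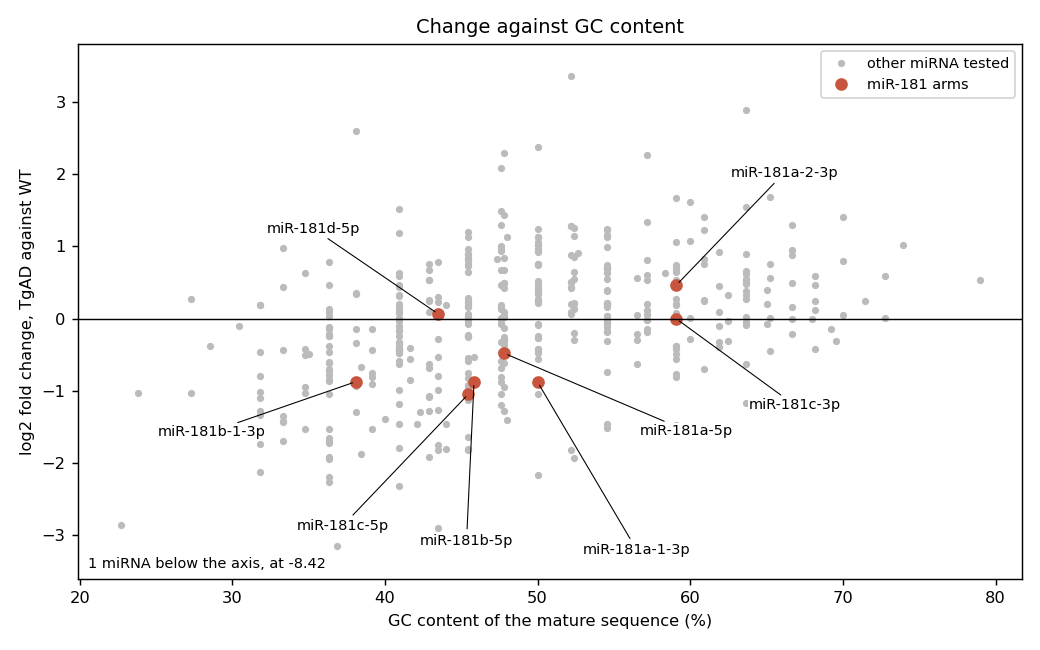
GC content of the mature sequence (x axis, %) and log2 fold change, TgAD against WT (y axis), for the tested miRNA with a RefSeq sequence (grey) and the 8 tested miR-181 arms (red). miRNA under 40% GC lie mostly below 0, as does miR-181b-1-3p at -0.87, and 1 miRNA is below the axis at -8.42.

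The measurable 3p arm of the chromosome 2 pair was not called in either direction. Read counts of mmu-miR-181a-2-3p were 359 and 509 for WT against 667 and 842 for TgAD, or 152.7 and 174.7 CPM against 243 and 209 CPM. Both TgAD libraries lay above both WT libraries, as they did for 30.6% of all tested miRNA, but the log2 fold change of 0.46 (SE 0.21) was under the cutoff and the adjusted p was 0.156 in edgeR's test. With the GC correction the log2 fold change was 0.19 (adjusted p = 0.593), at a GC content of 59.1%. miR-181b-2-3p had 2, 3, 4 and 3 reads, at or near the floor, and no fold change is given for it.

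At the chromosome 8 pair, miR-181c-3p did not follow its opposite arm. Its read counts were 2926 and 4572 for WT against 4069 and 5334 for TgAD, and its means of 1407 ± 230 and 1404 ± 111 CPM (SD, n = 2) differed by less than the spread between libraries (log2 fold change -0.0035, SE 0.20, adjusted p = 0.996 in edgeR's test). With the GC correction miR-181c-3p was at -0.28 (adjusted p = 0.434 in edgeR's test), at a GC content of 59.1%. miR-181d-3p was counted 5 and 7 times for WT against 9 and 19 times for TgAD, which the filter on low counts kept out of the test.

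Since the 3p arms name their locus, their reads can be divided by pair. The chromosome 1 pair gave 74.6% and 79.3% of all miR-181 3p reads in WT and 63.9% and 64.7% in TgAD libraries. The chromosome 2 pair gave 2.78% and 2.08% in WT and 5.10% and 4.82% in TgAD libraries, and the chromosome 8 pair 22.6% and 18.6% in WT and 31.0% and 30.5% in TgAD libraries. The genotypes did not overlap in any of these shares, which sum to 100% within a library and so do not move independently. Among levels of all tested miRNA, 32.5% lay below and 30.6% above both WT libraries in both TgAD libraries. A share of 3p reads also depends on how each arm is kept after cutting and is not a rate of transcription.

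**Figure D4:**
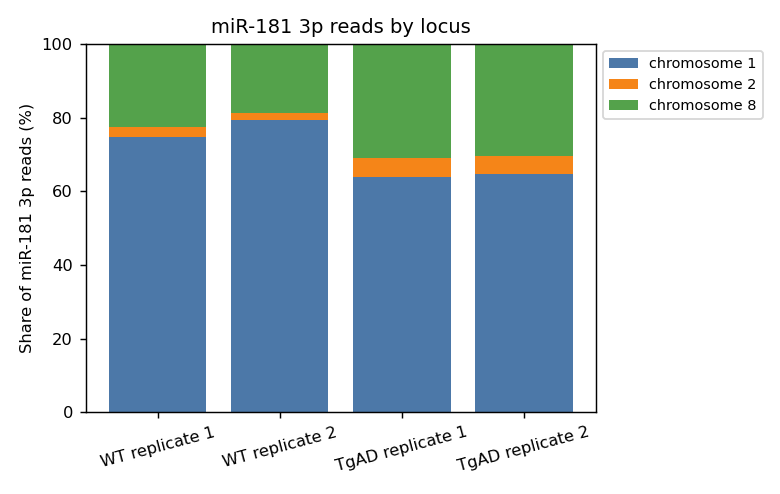
Share of all miR-181 3p reads (%) from the hairpins on chromosomes 1, 2 and 8 in each library, as stacked bars from 0 to 100%. Chromosome 1 gives 74.6% and 79.3% for WT against 63.9% and 64.7% for TgAD.

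A ratio of arms within a library does not depend on its depth or scaling, though it does on the GC content of the arms where that moves with genotype, and 6 such ratios were compared between the genotypes. With 2 libraries per genotype, the two-sided exact permutation test cannot go below 0.333, and 5 of the 6 ratios reached that value with both TgAD libraries below both WT libraries. These ratios were chosen with earlier results of these data known. Each of the 5 sets an arm called lower over an arm not called, and arms recur among them. Their separation thus largely restates the calls, and they are not separate results. How often ratios of other miRNA separate the genotypes in this way was not counted. With Benjamini-Hochberg adjustment over the 6 ratios none could pass 0.05.

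Reads of miR-181a-1-3p over those of miR-181a-2-3p, the same arm at chromosome 1 and chromosome 2, were at 26.3 and 37.7 in WT and 12.4 and 13.2 in TgAD libraries. On the log2 scale this ratio differed by -1.30 (pooled SD 0.26), a 2.46-fold decrease. miR-181b-1-3p over miR-181a-2-3p was at 0.708 and 0.654 in WT and 0.243 and 0.298 in TgAD libraries, a difference of -1.34 on the log2 scale. Between the fitted log2 fold changes of these arms with the GC correction, the difference was -0.47 (38.1% and 59.1% GC). The ratio of the neighbors on chromosome 1, miR-181a-1-3p over miR-181b-1-3p, was at 37.1 and 57.6 in WT and 50.9 and 44.2 in TgAD libraries, and here the genotypes overlapped (difference 0.04 on the log2 scale, exact permutation p = 1). Between the GC-corrected log2 fold changes of these arms the difference was -0.81, at 50.0% and 38.1% GC. The log2 fold changes of -0.88 and -0.87 at the chromosome 1 arms thus stood beside 0.46 at miR-181a-2-3p, and with the GC correction the values were -1.10, -0.28 (not called) and 0.19.

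Between loci that share a 3p seed, miR-181a-1-3p over miR-181c-3p was at 3.22 and 4.19 in WT and 2.03 and 2.08 in TgAD libraries, a difference of -0.84 on the log2 scale. Within a single hairpin, miR-181c-5p over miR-181c-3p was at 0.932 and 0.591 in WT and 0.419 and 0.295 in TgAD libraries, a difference of -1.08. Between the GC-corrected log2 fold changes of these arms the difference was -0.65. Between neighbors on chromosome 8, miR-181c-5p over miR-181d-5p was at 0.128 and 0.120 in WT and 0.0686 and 0.0455 in TgAD libraries, a difference of -1.15. While miR-181c-5p fell, both the opposite arm of its hairpin and the main arm of the adjacent one overlapped between the genotypes. Without TgAD replicate 1, the 5 ratios differed by between -1.44 and -0.82 on the log2 scale.

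**Figure D5:**
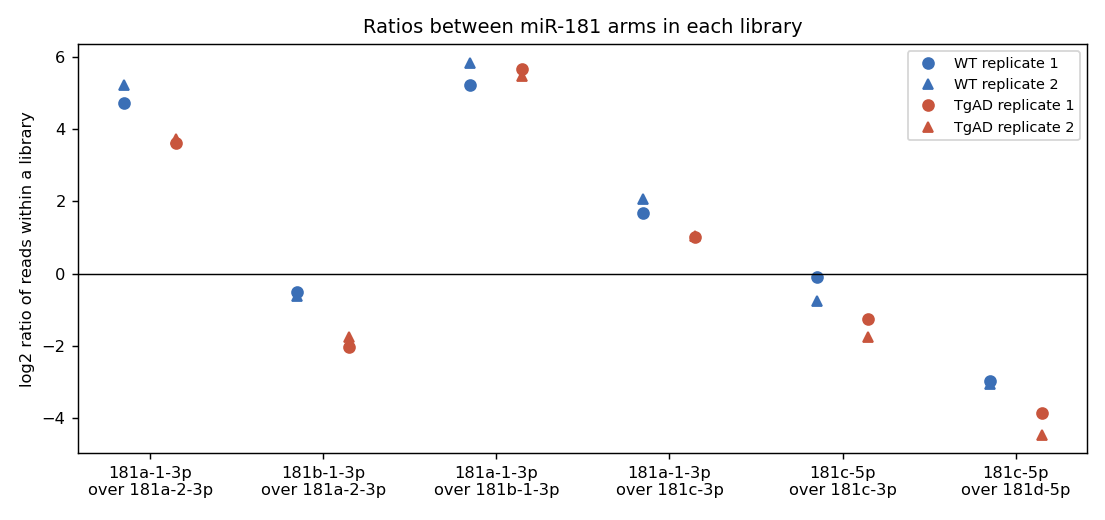
Log2 ratio of reads within a library for the 6 pairs of arms (x axis), with WT in blue, TgAD in red, circles for replicate 1 and triangles for replicate 2. TgAD points lie below both WT points for every pair except miR-181a-1-3p over miR-181b-1-3p, where they lie between them.

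The miRNA with the pattern most like that of an arm were found by the Euclidean distance between mean-centred log2 CPM values over the 4 libraries, among 495 other tested miRNA, as a description. The miRNA nearest to miR-181a-1-3p was miR-181b-5p (distance 0.20), followed by miR-1983, miR-380-5p, miR-488-3p and miR-186-3p, all of them called lower. miR-181b-1-3p held rank 17 in that order and miR-181a-2-3p rank 312. The nearest to miR-181c-5p were miR-33-5p (distance 0.11), miR-1291, miR-345-5p, miR-18a-5p and miR-103-2-5p, all called lower, and miR-181c-3p held rank 217. The nearest to miR-181d-5p were miR-31-5p (distance 0.07), miR-143-3p, miR-100-3p, miR-342-3p and miR-344c-3p, none of them called, with miR-181c-3p at rank 87 and miR-181c-5p at rank 393. With 4 libraries, 2 per genotype, such distances mostly follow the difference between the genotypes.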

How the data were processed

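Small RNA libraries from WT and TgAD cortical neurons, 2 per genotype, were grouped by the sample labels. The authors received reads with adapters removed, mapped them to GRCm38 (GRCm38.p6 in the submitters' processing notes) with Bowtie2 without mismatch, counted them on miRBase miRNA with HTSeq-count, and deposited whole-read counts, 1 table per library. They also deposited a table of normalized values, a signal of counts divided by a size factor, from which whole reads were recovered (100% of values within 0.01 reads of a whole number). Recovered reads served only to compare columns and as 1 alternative, in which edgeR called 0 of 480 miRNA. All columns were used (0 left out).

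Counts were tested with edgeR 4.0.16 (limma 3.58.1, R 4.3.3): TMM, filterByExpr, the quasi-likelihood test with genotype as the only factor, and Benjamini-Hochberg adjustment over 496 miRNA. DESeq2 1.42.0, other normalizations, filters, a GC correction (local regression, span 0.75, prior count 2), the replicate number as a block and leaving out each library were alternatives. Ratios used reads + 0.5 and an exact permutation test in scipy 1.17.1. Depth was 2070204 to 4811010 reads.

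The rule named all 10 arms, any miRNA with the miR-181 5p seed, and the 5 miRNA most like miR-181a-1-3p, miR-181c-5p and miR-181d-5p. The members and lists were chosen with earlier results of these data known. Mature sequences were from RefSeq (1675 of 1966 listed miRNA and all 10 arms matched, 441 of the 496 tested for GC content), and loci from GENCODE M21. Labels and methods differ slightly on the embryonic day, and on single-end or paired-end reads.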

Additional observations from a re-analysis of the deposited data

How the results depend on the processing

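With DESeq2, with edgeR's robust option, with RLE factors, with total counts for scaling, with a minimum of 10 reads in every library and with no filter, the same 4 arms were called lower and 0 higher, and with the GC correction 3. For ratios chosen after seeing the data, an alternative was the difference between the arms' GC-corrected log2 fold changes. This was -0.47 for miR-181b-1-3p over miR-181a-2-3p, -0.81 for miR-181a-1-3p over miR-181b-1-3p and -0.65 for miR-181c-5p over miR-181c-3p. miR-181c-5p ranged from -1.29 to -0.93 under these 7 settings. The number of arms called lower was 1 to 3 when 1 library was left out (1 without WT replicate 2, 2 without TgAD replicate 2, 3 otherwise). The 1 remaining library of a genotype was then assumed to vary like the others. At the stringent cutoffs 0 arms and 22 of all miRNA were called. With the reads of the normalized table, columns taken by name, 0 arms and 0 of 480 miRNA were called by edgeR (54 at an unadjusted p under 0.05), miR-181c-5p was at -1.21 (adjusted p = 0.443), and the log2 ratios of miR-181a-1-3p over miR-181a-2-3p, miR-181b-1-3p over miR-181a-2-3p and miR-181a-1-3p over miR-181c-3p differed by -1.01, -1.02 and -0.59. In that table a column named WT holds the counts labelled TgAD replicate 1, and no column holds those labelled WT replicate 2. Whether the table or the labels are right is not known. Leaving out 1 library, miR-181d-5p ranged from -0.069 to 0.20 and miR-181c-3p from -0.18 to 0.16. miR-181d-5p turned to -0.20 with total counts, -0.06 without WT replicate 2, -0.069 without TgAD replicate 1 and -0.10 with the normalized table, and miR-181c-3p to 0.0038 with the replicate block, 0.16 without WT replicate 2 and 0.10 without TgAD replicate 2, all far from the threshold. Total counts shifted the median of all log2 fold changes by -0.26 and split the calls into 122 lower and 43 higher, beside 86 and 78. Deviations of samples with the same replicate number had an r of 0.22 over 496 miRNA. With 2 libraries per genotype the crossed pairs take the opposite value by construction, so this r cannot show whether the number is a pairing. With the replicate block 188 miRNA were called in place of 164, and the 4 arms again. The low reads of miR-181b-2-3p and miR-181d-3p limit what can be said of them.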
